A study of Mus musculus with 4 samples.

Results

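The genes that sense sterols and release the SREBP transcription factors were examined in mouse induced regulatory T (iTreg) cells cultured with or without added iron. They are 7 genes, listed by symbol for their place in this pathway, among 47729 genes in the count table, of which 13732 had enough reads to be tested. Naive CD4 T cells of C57BL/6 mice (from spleen by the labels, from spleen and lymph nodes by the methods) were stimulated with anti-CD3 and anti-CD28 and differentiated with TGF-β, IL-2 and antibodies that block IL-4 and IFNγ, the same in both groups. For 4 days one group received ferrous sulfate at 50 μM (FeSO4) and the other received PBS (Mock). Each group had 2 libraries, which came from independent experiments. No sort of Foxp3+ cells before RNA extraction is described for these cultures, and in such bulk samples fewer cells of a type and less RNA per cell cannot be told apart.

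SREBPs are membrane-bound precursors in the endoplasmic reticulum. Srebf1 encodes SREBP-1, known mainly for fatty acid synthesis, and Srebf2 encodes SREBP-2, known mainly for cholesterol synthesis and uptake. Scap is the cholesterol sensor that escorts them to the Golgi in COPII vesicles, and the proteins of Insig1 and Insig2 hold Scap back when sterols are plentiful. In the Golgi, the site-1 protease (Mbtps1) and the site-2 protease (Mbtps2) cut the precursor, and the released part enters the nucleus. Insig1 and both Srebf genes are themselves known targets of SREBPs, Srebf1 is also a target of the oxysterol receptor LXR, and activated T cells depend on this pathway for membrane lipids as they grow.

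The stretches just before the start sites of 4 of the 7 genes are shown, since these genes are the paired relatives whose levels are compared here: the Insig pair and the Srebf pair. Each is the 250 bases before a RefSeq start site in build GRCm38.p6, written 5′ to 3′ on the gene's strand, with capitals for the letters of the motifs searched on both strands. For Srebf1 and Insig2 the start with the most motif matches is shown. The motifs were the sterol element core TCACCCCA, a second sterol element form TCACNCCAC, the E-box CACGTG, the NF-Y box CCAAT and the Sp1 box GGGCGG. The Insig1 stretch lies at chr5:28071162-28071411 (plus strand). The Insig2 stretch, before the most upstream of its 3 listed starts, lies at chr1:121332590-121332839 (minus strand). The RefSeq position of Insig2 ends at 121332662, so part of this stretch lies within the gene. That part holds the NF-Y boxes 25 to 29 and 42 to 46 bases before the start. The Srebf2 stretch lies at chr15:82147019-82147268 (plus strand). The Srebf1 stretch, before the most downstream of its 3 listed starts, lies at chr11:60210472-60210721 (minus strand). The RefSeq position of Srebf1 ends at 60224186, upstream of all 3 listed starts. The lists of starts may thus be incomplete.
Insig1: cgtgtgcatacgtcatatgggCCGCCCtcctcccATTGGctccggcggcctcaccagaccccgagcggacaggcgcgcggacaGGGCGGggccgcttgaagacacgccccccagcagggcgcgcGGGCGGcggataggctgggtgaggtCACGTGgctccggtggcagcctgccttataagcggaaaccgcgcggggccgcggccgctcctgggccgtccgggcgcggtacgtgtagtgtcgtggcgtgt
Insig2: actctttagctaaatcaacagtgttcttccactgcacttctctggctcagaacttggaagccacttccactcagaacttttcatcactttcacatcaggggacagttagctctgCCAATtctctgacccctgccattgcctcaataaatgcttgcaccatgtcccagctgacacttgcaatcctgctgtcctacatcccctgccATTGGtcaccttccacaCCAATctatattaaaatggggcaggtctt
Srebf2: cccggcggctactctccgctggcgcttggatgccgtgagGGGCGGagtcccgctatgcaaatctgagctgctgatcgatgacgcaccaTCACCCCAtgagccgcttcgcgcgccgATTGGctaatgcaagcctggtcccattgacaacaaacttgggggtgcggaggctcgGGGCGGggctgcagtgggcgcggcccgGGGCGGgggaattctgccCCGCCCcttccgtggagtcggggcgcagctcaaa
Srebf1: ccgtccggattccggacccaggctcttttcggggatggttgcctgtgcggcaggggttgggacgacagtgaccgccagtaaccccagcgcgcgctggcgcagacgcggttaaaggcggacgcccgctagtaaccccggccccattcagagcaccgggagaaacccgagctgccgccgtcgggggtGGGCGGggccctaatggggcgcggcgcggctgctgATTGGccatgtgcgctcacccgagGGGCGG

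The Srebf2 stretch held the sterol element core, 155 to 162 bases before the start, and no other stretch of the 7 genes held it. This core was present in 1.34% of 32851 such stretches in the table, and the second form, present in 1.05%, was found in none of the 12 stretches of the 7 genes. The Insig1 stretch held an E-box 96 to 101 bases before the start, a motif of 6.02% of all stretches. Of the other members, Scap held an E-box before 1 of its 2 starts, 35 to 40 bases away. The Insig1 stretch also held 1 NF-Y box and 3 Sp1 boxes, while the Srebf2 stretch held 1 and 4, and the Srebf1 stretch shown 1 and 2. Of the other 2 listed starts of Srebf1, the most upstream had 1 NF-Y box and no Sp1 box. The middle one had no NF-Y box and 2 Sp1 boxes. The Insig2 stretch shown held 3 NF-Y boxes and none of the other motifs, and its GC content was 47.2%. The stretches before the other 2 starts of Insig2 each held 1 Sp1 box and no NF-Y box, at a GC content of 56.8% and 69.6%, against 72.8% for Insig1. The NF-Y box was present in 33.8% and the Sp1 box in 32.7% of all stretches. No 2 matches overlapped in the printed stretches. These are matches of letters only. The counts are per gene and do not separate start sites, so for Srebf1, Insig2 and Scap the transcripts of different starts cannot be told apart.

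Of the 7 genes, 3 rose in FeSO4, 1 fell, and 3 did not pass the test. Insig1 rose 1.96-fold, Srebf1 1.77-fold and Srebf2 1.28-fold, whereas Scap fell to 0.81 of its Mock level. Insig2, Mbtps1 and Mbtps2 were not called. A call is an adjusted p under 0.05 in edgeR's quasi-likelihood test, with Benjamini-Hochberg adjustment over all 13732 genes. By that rule 10.6% of all tested genes were higher and 8.89% were lower, so that 54.4% of calls were higher, against 34.9% with library size as the only scaling. In none of the 7 genes did the FeSO4 and Mock libraries overlap, and 59.5% of all tested genes likewise had separate groups. All 7 passed the filter on low counts, with 716 to 22352 reads per library. The median log2 fold change of the 7 was 0.26, while that of all tested genes was -5e-04. Levels are given as CPM, a read count per 1000000 reads of its library's TMM-scaled size.

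**Figure D1:**
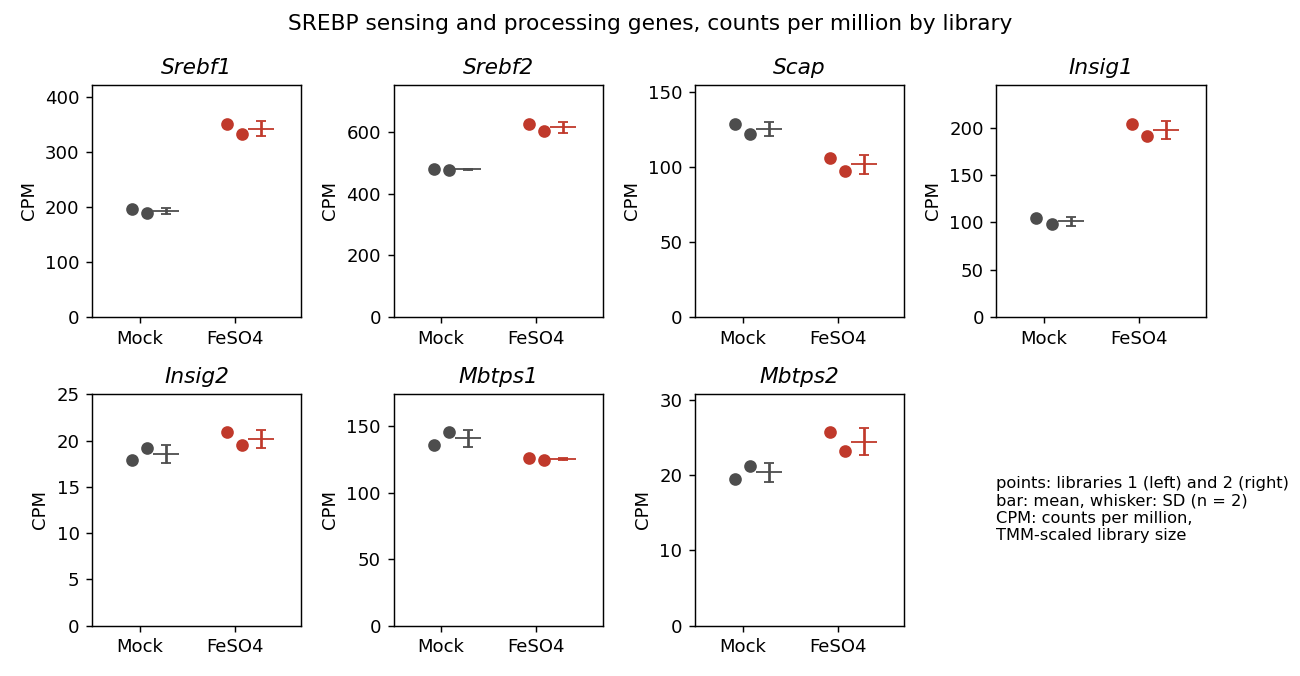
CPM (linear axis from 0) of the 7 genes in each library, Mock in dark grey and FeSO4 in red, with the mean and SD (n = 2) beside the points. Srebf1 and Insig1 stand far apart between the groups, Scap is lower in FeSO4, and Insig2 shows nearly touching groups.

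Srebf1 (ENSMUSG00000020538, chromosome 11, 60199084 to 60224186, GRCm38, minus strand) measured 197 CPM in Mock replicate 1 and 189 CPM in Mock replicate 2, against 351 and 332 CPM in FeSO4 replicates 1 and 2. The groups did not overlap, and the difference between the groups was many times the gap within either. The mean ± SD (n = 2) was 193 ± 5.05 CPM in Mock and 342 ± 13.7 CPM in FeSO4. The log2 fold change was 0.82 ± 0.06 (SE), with an adjusted p of 5.78e-07. Exons of Srebf1 overlap those of Rai1 on the opposite strand in the annotation used for lengths, and the strand setting of the counts is not stated. Rai1, a chromatin-associated protein gene, changed in the other direction (log2 fold change -0.30 ± 0.07, SE, adjusted p = 0.00555).

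Srebf2 (ENSMUSG00000022463, chromosome 15, 82147269 to 82205379, GRCm38, plus strand) started from a high level, with 482 and 479 CPM in the Mock libraries and 629 and 604 CPM with FeSO4. Both FeSO4 libraries were above both Mock libraries, and the Mock libraries lay close together. The mean ± SD (n = 2) was 480 ± 1.87 CPM in Mock and 616 ± 17.6 CPM in FeSO4. The log2 fold change was 0.36 ± 0.06 (SE), with an adjusted p of 0.00061. The fold change of Srebf1 was the larger of the pair. The ratio of Srebf1 to Srebf2 counts within a library, which no scaling of libraries can change, was 0.408 and 0.395 in Mock and 0.559 and 0.550 in FeSO4. The FeSO4 ratios were thus above the Mock ratios without overlap. On the log2 scale the ratio differed by 0.46 ± 0.03 (SE, n = 2 each). This is given as a description with no p, since an exact two-sided permutation test of 2 libraries against 2 cannot go below 0.333.

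Scap (ENSMUSG00000032485, chromosome 9, 110333288 to 110384949, GRCm38, plus strand) fell, unlike the factors it escorts. Its levels were 129 and 122 CPM without added iron, compared with 106 and 97.2 CPM with it, and the groups did not overlap. The mean ± SD (n = 2) was 126 ± 4.76 CPM in Mock and 102 ± 6.46 CPM in FeSO4. The log2 fold change was -0.30 ± 0.07 (SE), with an adjusted p of 0.00796. The call rested on FeSO4 replicate 2. Without that library the log2 fold change was -0.24 ± 0.10 (SE) and the adjusted p was 0.118, and over all alternatives the adjusted p ranged from 0.00144 to 0.118. Exons of Scap overlap those of 5830462I19Rik on the opposite strand, a row with 28 and 33 reads in Mock and 6 and 12 in FeSO4, against 3598 to 5236 for Scap.

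Insig1 (ENSMUSG00000045294, chromosome 5, 28071412 to 28078662, GRCm38, plus strand) showed the largest fold change of the 7 genes. The Mock libraries held 105 and 97.9 CPM, and the FeSO4 libraries held 205 and 191 CPM. Both FeSO4 libraries stood well above both Mock libraries. The mean ± SD (n = 2) was 101 ± 4.67 CPM in Mock and 198 ± 9.30 CPM in FeSO4. The log2 fold change was 0.97 ± 0.07 (SE), with an adjusted p of 2.51e-07. By p-value Insig1 was rank 19 and Srebf1 rank 25 of the 13732 genes tested.

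Insig2 (ENSMUSG00000003721, chromosome 1, 121304353 to 121332662, GRCm38, minus strand) encodes the second retention protein, and its RNA did not pass the test. Mock gave 17.9 and 19.2 CPM, while FeSO4 gave 20.9 and 19.5 CPM. The highest Mock and the lowest FeSO4 library nearly touched. The log2 fold change was 0.12 ± 0.11 (SE, adjusted p = 0.485), with a 95% interval from -0.11 to 0.35, so a rise of up to 1.28-fold or a small fall lies within it. The interval of Insig1 ran from 0.82 to 1.11, above that of Insig2.

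The balance of the Insig transcripts differed between the groups, with more Insig1 for each Insig2 read in FeSO4. The ratio of Insig1 to Insig2 counts was 5.84 and 5.09 in Mock and 9.79 and 9.83 in FeSO4. The FeSO4 libraries lay close together, and both lay above the Mock libraries, of which replicate 1 was the higher. On the log2 scale the ratio differed by 0.85 ± 0.10 (SE, n = 2 each), again a description with no p.

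**Figure D2:**
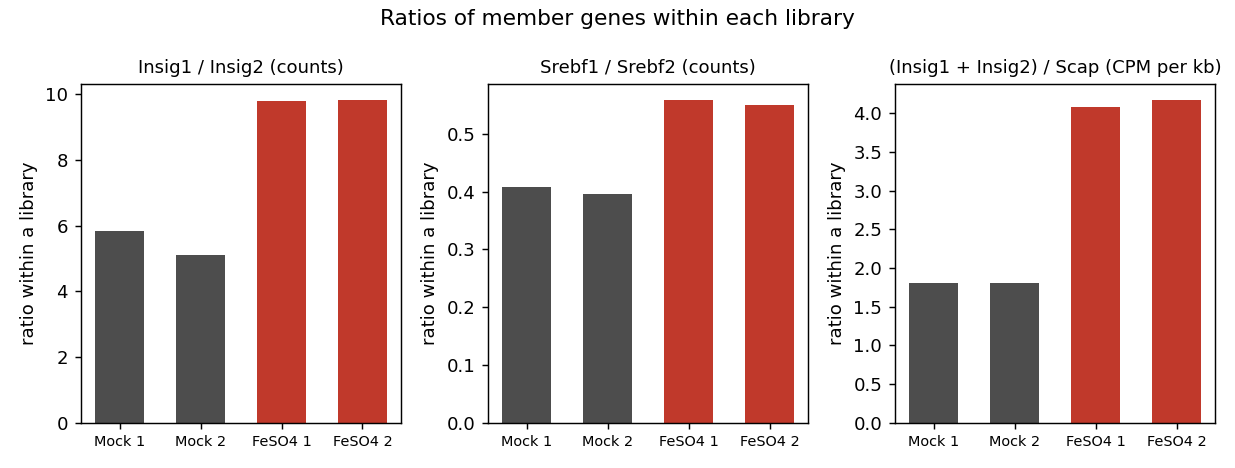
Ratios of member genes within each library (bars from 0; Mock grey, FeSO4 red), for Insig1 over Insig2 counts, Srebf1 over Srebf2 counts, and Insig1 plus Insig2 over Scap in CPM per kilobase. In all 3 panels both FeSO4 libraries stand above both Mock libraries, as in 9.79 and 9.83 against 5.84 and 5.09 for the Insig pair.

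The proteases did not pass the test, and their values pointed in opposite directions. Mbtps1 (ENSMUSG00000031835, chromosome 8, 119508151 to 119558864, GRCm38, minus strand), the site-1 protease that makes the first cut, gave 136 and 145 CPM with PBS, against 126 and 125 CPM with FeSO4. The FeSO4 libraries were the lower ones, with a difference of -0.17 ± 0.07 on the log2 scale (SE, adjusted p = 0.0955, 95% interval -0.31 to -0.02). With library size as the only scaling it passed (adjusted p = 0.0228), and over all alternatives its adjusted p ranged from 0.0228 to 0.367.

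Mbtps2 (ENSMUSG00000046873, chromosome X, 157547822 to 157598715, GRCm38, minus strand), the membrane-embedded site-2 protease that makes the second cut, gave 19.5 and 21.2 CPM with PBS, against 25.7 and 23.2 CPM with FeSO4. Both FeSO4 libraries were above both Mock libraries, but the gap between the groups was smaller than the distance between the FeSO4 libraries. The log2 fold change was 0.26 ± 0.11 (SE, adjusted p = 0.0991, 95% interval 0.04 to 0.49). Its exons overlap those of Yy2 on the same strand, for which the table lists 0 reads in every library. Reads in shared exons may have been set aside as ambiguous (3.78 to 3.91% of reads per library). The 0 therefore does not show that Yy2 was silent, and Mbtps2 reads may be missing too.

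**Figure D3:**
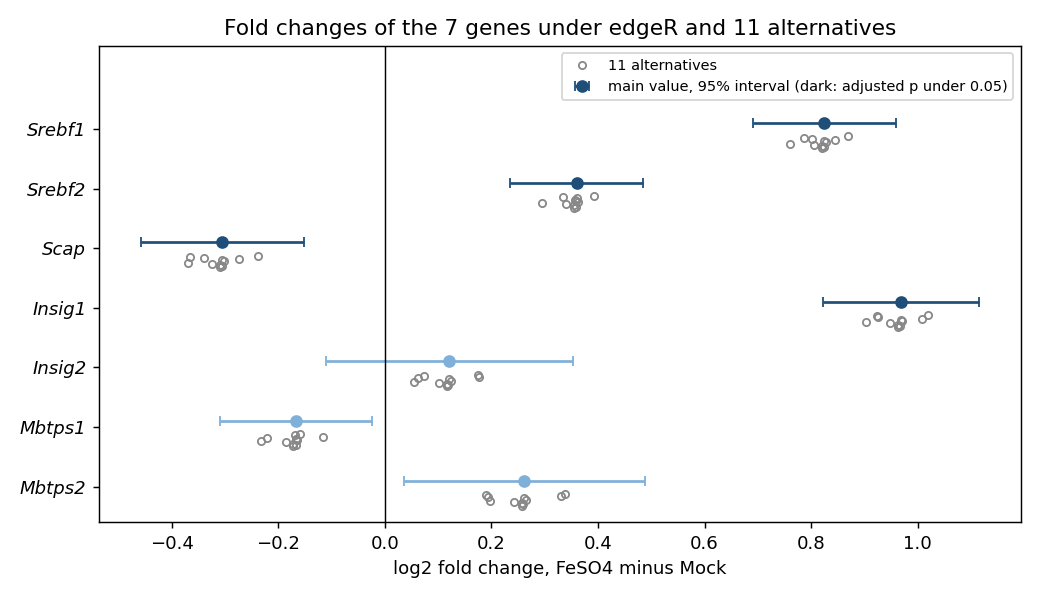
Log2 fold changes of the 7 genes, FeSO4 minus Mock, with 95% intervals (filled points, dark where the adjusted p was under 0.05) and the values under 11 alternatives (open circles). Srebf1, Srebf2 and Insig1 lie to the right of 0 and Scap to the left under every alternative, and the interval of Insig2 spans 0.

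Levels were compared between genes per kilobase of exon. The lengths cover all M1 exons of a gene, while reads in exons shared with another gene may be missing. The levels of Srebf1, Scap and Mbtps2, which share exons, are therefore approximate. In Mock the order was Srebf2 (96.3 ± 0.374 CPM per kilobase), Insig1 (38.2 ± 1.76), Srebf1 (34.2 ± 0.896), Scap (24.1 ± 0.915), Mbtps1 (20.7 ± 0.951), Insig2 (5.34 ± 0.271) and Mbtps2 (2.01 ± 0.123; SD, n = 2 each). The order was the same in FeSO4, with 124 for Srebf2, 74.8 for Insig1, 60.7 for Srebf1, 19.6 for Scap, 18.4 for Mbtps1, 5.81 for Insig2 and 2.42 for Mbtps2. In FeSO4 the neighbours Scap (19.6 ± 1.24) and Mbtps1 (18.4 ± 0.0892) differed by less than the SD of Scap, while the means of the other neighbours in either group were farther apart than their SDs. Of these levels, the sum of Insig1 and Insig2 over Scap was 1.80 and 1.81 in Mock and 4.08 and 4.17 in FeSO4. The sum of Srebf1 and Srebf2 over Scap was 5.30 and 5.52 in Mock and 9.22 and 9.64 in FeSO4. Both ratios of RNA levels, formed after the values were seen, were higher in both FeSO4 libraries, and they say nothing of protein amounts.

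For each called gene, the genes of most similar pattern were found by the smallest distance over the 4 libraries, on log2 CPM centred per gene, among 8522 genes whose mean was 10 CPM or more. For Insig1 they were Sqle, the squalene epoxidase of cholesterol synthesis (distance 0.05), followed by Pdpn and AW112010 (0.06 and 0.07). For Srebf1 they included Gpr171 and Ctla2a (both 0.06), with log2 fold changes of 0.87 and 0.86. For Srebf2 they were Ostc, Pop4 and Pde3b (all 0.02), and for Scap they were Spsb1, Pik3r5 and Hs1bp3 (0.03, 0.03 and 0.04). The distance covers only 4 libraries in 2 groups.

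The genes that act on the SREBP machinery are read beside all tested genes, of which 10.6% were higher and 8.89% lower. Of 20 regulators of SREBP or its turnover, 2 were higher and 18 were not called, with a median log2 fold change of 0.0034. Rnf145, a ubiquitin ligase known to act on Scap, rose from 148 and 148 CPM in Mock to 186 and 191 CPM in FeSO4 (log2 fold change 0.35 ± 0.06, SE, adjusted p = 0.00124). Lpin1, a phosphatidate phosphatase that restrains nuclear SREBP, rose from 39.4 and 41.0 CPM to 45.5 and 54.0 CPM (adjusted p = 0.0324). Both were higher in each FeSO4 library than in either Mock library. Rnf139, a ligase bound to Insig (log2 fold change 0.22, adjusted p = 0.0837), and Gsk3b, a kinase that marks nuclear SREBP for breakdown (-0.18, adjusted p = 0.107), did not pass.

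Among the 12 genes of the COPII coat, which carries Scap with SREBP out of the endoplasmic reticulum, 1 was higher, 2 were lower and 9 were not called (median -0.02), and nothing is read from counts so near the share of all genes. Sec16a, which organises the exit sites, fell from 113 and 126 CPM to 94.9 and 97.9 CPM (log2 fold change -0.31 ± 0.07, SE, adjusted p = 0.00811). The cargo adaptors went both ways. Sec24a fell (-0.30 ± 0.09, SE, adjusted p = 0.0239), Sec24d, present at a lower level, rose (0.39 ± 0.12, SE, adjusted p = 0.0412), and the coat gene Sec13 did not pass (0.19, adjusted p = 0.0826). Of 8 other substrates of the site-1 and site-2 proteases, 6 were tested, and 1 was higher, against 10.6% of all tested genes. This was Gnptab, the mannose-6-phosphate tagging enzyme (0.28 ± 0.09, SE, adjusted p = 0.0403). The stress sensor Atf6, cut by the same proteases, measured 31.0 and 35.7 CPM in Mock against 34.8 and 36.0 CPM with FeSO4, overlapping groups. Creb3 (0.26) and Creb3l2 (-0.40) did not pass.

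Of the genes that SREBPs are known to drive, 19 of 20 tested sterol synthesis genes were higher and 1, Ebp, was not called (median log2 fold change 0.90), against 10.6% higher among all tested genes. Since the study named cholesterol synthesis from these same libraries, the direction of this list is not independent evidence. Cyp51, Sqle, Msmo1 (Sc4mol in the symbols used) and Fdft1 had the smallest p-values, with log2 fold changes of 1.19, 0.98, 1.17 and 0.91. Insig1, at 0.97, lay just above the median of this list, Srebf1 (0.82) a little below it, and Srebf2 (0.36) below all of its called members, of which the lowest was Mvk at 0.60. Of 14 fatty acid genes, 10 were higher and 4 were not called (median 0.49). The desaturases Fads2 (2.66), Scd1 (1.86) and Scd2 (1.73) had the smallest p-values, followed by Mid1ip1, which activates acetyl-CoA carboxylase and rose from 21.2 and 19.4 CPM to 41.0 and 40.4 CPM. Scd1 and Scd2 are close paralogs, so reads that match both may be missing from their counts. Fasn, the fatty acid synthase, rose by 0.40 on the log2 scale, and Acss2 (-0.10) and Elovl6 (0.11) were not called.

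Of the 7 genes of lipoprotein uptake and lysosomal cholesterol release reported here, 6 were tested, of which 2 were higher and 4 were not called (median log2 fold change -0.0046), beside 10.6% higher and 8.89% lower among all tested genes. Scarb1, a receptor for high-density lipoprotein, rose from 21.8 and 25.8 CPM to 41.9 and 40.1 CPM (log2 fold change 0.79 ± 0.10, SE, adjusted p = 7.72e-05). Lrp8, a receptor for apolipoprotein E, rose from 41.5 and 46.4 CPM to 71.1 and 57.8 CPM (0.55 ± 0.10, SE, adjusted p = 0.00146). In neither gene did the groups overlap. Lrp1, with 17 to 67 reads per library, did not pass (adjusted p = 0.0621), nor did Lipa, the lysosomal acid lipase that frees cholesterol from its esters (-0.14, adjusted p = 0.273).

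Because Srebf1 is an LXR target, the LXR genes were set beside it. Of 9 tested, 2 were higher, 2 were lower and 5 were not called (median 0.11), where 10.6% of all tested genes were higher and 8.89% lower. The cholesterol exporter Abcg1 rose (log2 fold change 0.53 ± 0.09, SE, adjusted p = 0.000846), while the exporter Abca1, at low level, fell from 7.47 and 7.13 CPM to 4.00 and 5.05 CPM (-0.69 ± 0.20, SE, adjusted p = 0.0254). Lpcat3, which remodels phospholipids, rose (0.46, adjusted p = 0.0013), and the partner receptor Rxrb fell (-0.21, adjusted p = 0.049). Nr1h2, which encodes LXRβ, was not called (-0.08, adjusted p = 0.487).

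**Figure D4:**
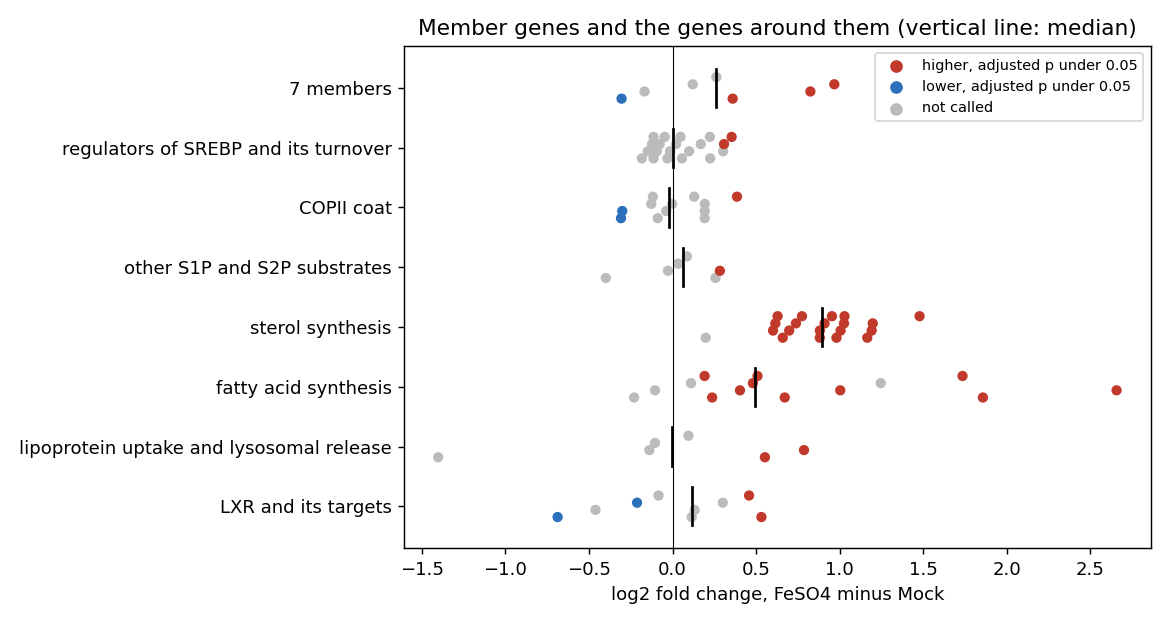
Log2 fold changes, FeSO4 minus Mock, of the 7 member genes and of the tested genes of 7 lists around them, 1 point per gene, red or blue where the adjusted p was under 0.05, with the median as a vertical line. The sterol list lies to the right of 0 throughout (median 0.90), whereas the regulators and the COPII coat centre near 0.

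The libraries held 35183187 to 40859178 reads in gene rows, and a count of 3 corresponds to 0.0717 to 0.0876 CPM, far below the levels of the 7 genes. CD4 T cell markers were abundant in every library (Cd4 at 606 to 683 CPM), and the 6 CD4 T and Treg markers summed to 3115 and 3416 CPM with PBS and to 3023 and 3276 CPM with FeSO4. Of these 6, Foxp3 (587 and 693 CPM in Mock, 376 and 472 with FeSO4) and Ikzf2 fell. The lower RNA level of the defining Treg gene thus stands beside every result here. For iTreg cultures the study reported, by intracellular staining of the protein, little change in Foxp3 induction with iron sulfate. The part of the Foxp3 and Ikzf2 RNA differences in the results for the 7 genes was not tested. Both NK cell markers, Ncr1 and Klrb1c, had 0 reads in the 4 libraries. The summed B cell markers reached 2.38 to 3.38 CPM, with Ms4a1 at 0 in all but Mock replicate 1. Myeloid markers reached 6.24 and 2.49 CPM in Mock and 1.84 and 2.35 with FeSO4, where Lyz2 and Csf1r were at 0. Dendritic markers reached 0.0239 to 0.378 CPM and CD8 T cell markers at least 9.04 CPM, highest in FeSO4 replicate 2. The 2 matched erythroid markers summed to 24.9 and 19.8 CPM with PBS and to 37.6 and 32.6 CPM with FeSO4, nearly all from Hba-a1, a gene with a near-identical copy, which was called higher (adjusted p = 0.000999). Their part in the results was not tested.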

How the data were processed

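RNA of iTreg cultures was sequenced in 4 libraries, 2 per group, grouped by the labels. The authors deposited whole-number read counts, 1 row per Ensembl gene, without normalization. The submitters' processing notes name Trim Galore 0.6.7, STAR 2.7.9a, featureCounts and the build mm10, whereas the study's methods name mm9, and the 5 rows of unassigned reads carry HTSeq names. The annotation and strand setting are not given in the sources used here. The 5 rows (15.9 to 17.3% of reads) were left out. Reads with more than 1 alignment were among them.

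The fit used edgeR 4.0.16 (R 4.3.3), with filterByExpr by group and TMM scaling. FeSO4 was compared with Mock by the quasi-likelihood F test, and p-values were adjusted by Benjamini-Hochberg over the 13732 genes kept. CPM use TMM-scaled library sizes. The SE is the absolute log2 fold change over the square root of F. Intervals cover 95%. Symbols were matched by Ensembl ID through the GENCODE M1 names. All 7 genes matched, and of the other listed genes all but Hmgcs1 and Hbb-bs did. Exon lengths and overlaps are from GENCODE M1 (NCBIM37), and gene positions and promoters are from RefSeq GRCm38.p6. None of the printed stretches shared 30 bases with a spliced M1 transcript of its gene. Only protein-coding M1 transcripts were searched, so the search does not settle whether the Insig2 stretch is partly transcribed. Among those described but not printed, 2 did and so are partly transcribed. They are the stretches before the most downstream starts of Insig2 (210 windows of 30 bases) and Scap (35 windows, the stretch with the E-box). The fit was also run on simulated data, and no result of that run is given here.

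The genes and lists were chosen with earlier results of these data known. The text names the 7 genes, per list the 4 genes, or fewer, with the smallest p, and for each called gene the 3 of most similar pattern. Genes named beyond this rule, such as Ebp, Mvk, Fasn, Acss2, Elovl6 and Nr1h2, were chosen after their values were seen. Some genes that these rules or lists would name are not reported here, and the lipoprotein list is given without them. Libraries of a group differed by more than counting noise (chi-square per degree of freedom 11.4 in Mock and 9.35 in FeSO4). Alternatives were DESeq2 1.42.0, limma-voom (limma 3.58.1), 3 other scalings, only genes without any read dropped, a replicate block, the study's threshold and each library left out.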

Additional observations from a re-analysis of the deposited data

How the results depend on the processing

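The log2 fold changes of the 7 genes kept their sign under all 11 alternatives, with ranges of 0.76 to 0.87 for Srebf1, 0.29 to 0.39 for Srebf2, -0.37 to -0.24 for Scap, 0.90 to 1.02 for Insig1, 0.06 to 0.18 for Insig2, -0.23 to -0.12 for Mbtps1 and 0.19 to 0.34 for Mbtps2. Without FeSO4 replicate 2 Scap was not called (-0.24), so the number of the 7 genes called lower was 0 there and 1 without each of the other libraries. With library size only, Mbtps1 was called (-0.23), which made 2 lower. Where the calls used the study's own threshold instead (p below 0.05 before adjustment and a log2 fold change of 0.5 or more in size), 0 were lower and 2 higher, by construction. The fits without 1 library assume that the lone library left in a group varies like the other group. In them 3 of the 7 were higher each time, the ratio of Insig1 to Insig2 differed by 0.75 to 0.95 and that of Srebf1 to Srebf2 by 0.44 to 0.49 (log2).

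Over all genes, leaving out 1 library gave 927 to 1159 higher and 799 to 1030 lower genes, the fewest without FeSO4 replicate 1. Library size only gave 939 higher and 1748 lower genes (34.9% higher against 54.4% with TMM) and moved the median of all genes to -0.07. The study's threshold, applied to the edgeR fit, gave 614 higher and 766 lower genes. These are not the study's own counts, which came from DESeq2 and held more upregulated than downregulated genes. The cause was not tested for the scaling.

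The methods speak of pairs from independent experiments, but the labels do not say that a replicate number marks one. The deviations of same-numbered libraries correlated at 0.03 across all tested genes (0.22 at a mean of at least 10 CPM). With the replicate block, 1743 genes were higher and 1467 lower, 3 and 1 of the 7, and the block changed no call among them (Scap -0.31, Mbtps1 adjusted p = 0.058).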
